A study of Rattus norvegicus with 8 samples.

Results

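The rat hairpin precursor probe sets are the rows of the microRNA array that were designed against the stem-loop form of a microRNA instead of against its mature strand. They were taken as all rows of the microRNA table whose identifier lacked the prefix of the mature rat rows, which gave 486 of 1166 rat rows. The 486 sets named 408 hairpins, and the other 680 rows were mature microRNAs. Of the sets, 399 carried the plain suffix, 76 the suffix x and 11 the suffix s.

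Primary cells isolated from rat testis and labelled as Sertoli cells, the somatic nurse cells of the seminiferous tubule, were kept in DMEM/F12 medium with 10% fetal bovine serum and were divided into 4 groups after 24 h. The control group received solvent, the NP group 0.1 μM NP, the MBP group 0.1 mM MBP, and the NP+MBP group both agents at those doses, each for 24 h. The labels do not spell out NP or MBP and give no rat strain or age. Each group had 1 microRNA array and 1 gene-level array, so a difference between groups on the microRNA arrays compared 1 array with 1 array and had no replicate check. Precision is set by having 4 microRNA arrays.

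A microRNA gene is transcribed as a long primary transcript, from which the nuclear enzyme Drosha cuts a hairpin. The enzyme Dicer then cuts the hairpin in the cytoplasm into a short duplex, and 1 strand is loaded into an Argonaute protein to repress messenger RNAs that match its seed. Hairpins are short-lived intermediates, while mature strands are stable. In the testis, microRNAs made in Sertoli cells are needed for spermatogenesis.

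The RefSeq annotation of the rat build GRCr8 matched 405 of the 408 hairpin names and held a stem-loop sequence for 364 of them. The sequences below belong to the hairpins with the highest signal, to those brighter than their own mature row and to some of those with the lowest MBP or NP differences among sets above the signal filter given below. Each is written 5′ to 3′ on its own strand, and capitals mark the arms that RefSeq annotates as mature microRNAs.
mir-351: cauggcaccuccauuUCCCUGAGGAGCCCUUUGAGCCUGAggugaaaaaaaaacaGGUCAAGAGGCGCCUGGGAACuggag
mir-423: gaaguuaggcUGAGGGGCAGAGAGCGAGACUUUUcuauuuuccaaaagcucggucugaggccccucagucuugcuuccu
mir-23a: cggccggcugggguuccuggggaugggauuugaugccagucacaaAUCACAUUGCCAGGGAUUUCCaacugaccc
mir-346: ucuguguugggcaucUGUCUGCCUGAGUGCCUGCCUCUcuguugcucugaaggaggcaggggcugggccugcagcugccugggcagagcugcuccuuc
mir-466d: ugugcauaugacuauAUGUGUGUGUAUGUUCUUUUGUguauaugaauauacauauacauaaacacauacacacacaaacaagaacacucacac
mir-935: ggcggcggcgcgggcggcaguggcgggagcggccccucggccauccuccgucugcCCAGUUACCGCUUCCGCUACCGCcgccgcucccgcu
mir-421: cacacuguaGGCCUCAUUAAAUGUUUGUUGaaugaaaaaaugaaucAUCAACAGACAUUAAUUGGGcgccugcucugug
let-7a-1: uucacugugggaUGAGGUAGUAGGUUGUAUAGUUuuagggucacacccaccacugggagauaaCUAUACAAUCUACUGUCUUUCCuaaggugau
mir-207: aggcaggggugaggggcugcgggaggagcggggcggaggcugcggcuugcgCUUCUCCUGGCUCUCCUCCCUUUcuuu
The mir-351 hairpin lies at chrX:137725116-137725196 on the minus strand, within the span of a long noncoding RNA gene. The mir-423 hairpin lies at chr10:62412272-62412350 on the minus strand within the span of Nsrp1, and the mir-23a hairpin at chr19:40859769-40859843 on the minus strand within no annotated gene. The mir-346 hairpin lies at chr16:10224300-10224397 on the plus strand within the span of Grid1, a glutamate receptor gene. The mir-466d hairpin lies at chr17:72913004-72913096 on the minus strand within the span of Sfmbt2, a Polycomb-group gene. The mir-935 hairpin lies at chr1:74671210-74671300 on the minus strand within Cacng8, and the mir-421 hairpin at chrX:72657339-72657417 on the minus strand within the noncoding genes Ftx and Jpx. The let-7a-1 hairpin lies at chr17:16320133-16320226 on the plus strand within a long noncoding RNA gene, and the mir-207 hairpin at chr5:60638796-60638873 on the plus strand within the span of Dnaja1, a chaperone gene. The annotation gave gene spans without exons or gene strands, so exonic and intronic hairpins were not separated. Of the named hairpins with a position, 31 of 42 (73.8%) that reached the signal filter described next lay within the span of another gene, as did 282 of 363 (77.7%) of the rest.

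The hairpin sets were dim. All values are log2 signals as the authors deposited them, and each level below is the mean over the 4 microRNA arrays unless the groups are listed. The median hairpin level was 0.17 (quartiles -0.09 and 0.61), and 413 of the 486 sets (85.0%) lay below 1, against 46.0% of the mature rows. The highest hairpin set reached 8.09, and the highest mature row 13.92. A row was counted as above the filter when its mean was at least 1.35, the median of the mature rows. By that rule 45 hairpin sets (9.26%) of 42 names were above, and 38 of them were above on every one of the 4 arrays. With the filter at the mature rows' 75th percentile of 5.25, mir-351 and mir-423 alone were above. Just inside the filter lay the mir-134 set at 1.38 and the let-7b x set at 1.36, and just outside it the mir-487b set at 1.32 and the mir-185 set at 1.30.

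**Figure D1:**
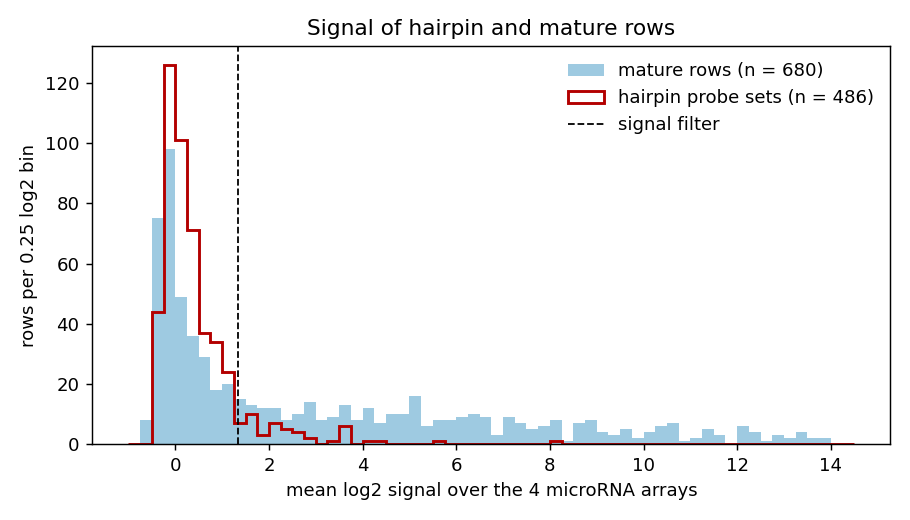
Histogram of the mean log2 signal over the 4 microRNA arrays for the 486 hairpin probe sets (outline) and the 680 mature rows (filled), in bins of 0.25. The dashed line is the signal filter at 1.35, and most of the hairpin sets lie to its left.

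The groups had similar hairpin signal as a whole. On the control array the hairpin median was 0.22 and 57 sets reached 1.35. Under NP and under MBP the median was 0.18, and with both it was 0.15, with 48, 48 and 46 sets at 1.35 or more on these 3 arrays. Many of the lowest values recurred exactly: to 6 decimals, 60 hairpin sets on the control array held a value that at least 5 rows of that array shared, as did 60, 42 and 60 sets on the NP, MBP and NP+MBP arrays. No such shared value exceeded 1.06, below the filter.

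The brightest hairpin was mir-351, whose mature strand shares its seed with the miR-125 microRNAs. It read 8.08 in control, 8.23 in NP, 7.99 in MBP and 8.08 in NP+MBP. The arrays therefore lay within 0.24 of each other, and mature miR-351 read 11.72. The mir-423 set came next, with 5.90 on the control, 5.52 on the NP, 5.37 on the MBP and 5.74 on the NP+MBP array. All 3 treated arrays were below the control array for mir-423. The x set of mir-23a, whose mature strand is abundant in many cell types, read 4.54, 4.21, 4.14 and 4.43 in the same group order, and its plain set read 3.75, 3.74, 3.48 and 3.72. The MBP array was the lowest for both mir-23a sets.

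The next hairpins lay between 3 and 4.1. The mir-505 set averaged 4.03, the mir-346 set 3.72, the mir-17-1 x set 3.64, the mir-665 set 3.63 and the mir-143 set 3.54. Mature miR-17 promotes cell cycle progression in many cell types, and miR-143 is characteristic of smooth muscle and stromal cells. The mir-202 set, whose microRNA is made mainly in the gonads and is known from Sertoli cells, read 3.21 on the control, 2.86 on the NP, 2.78 on the MBP and 3.13 on the NP+MBP array. It was thus 12th of the 486 sets, and the NP and MBP arrays were lower than the other two.

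**Figure D2:**
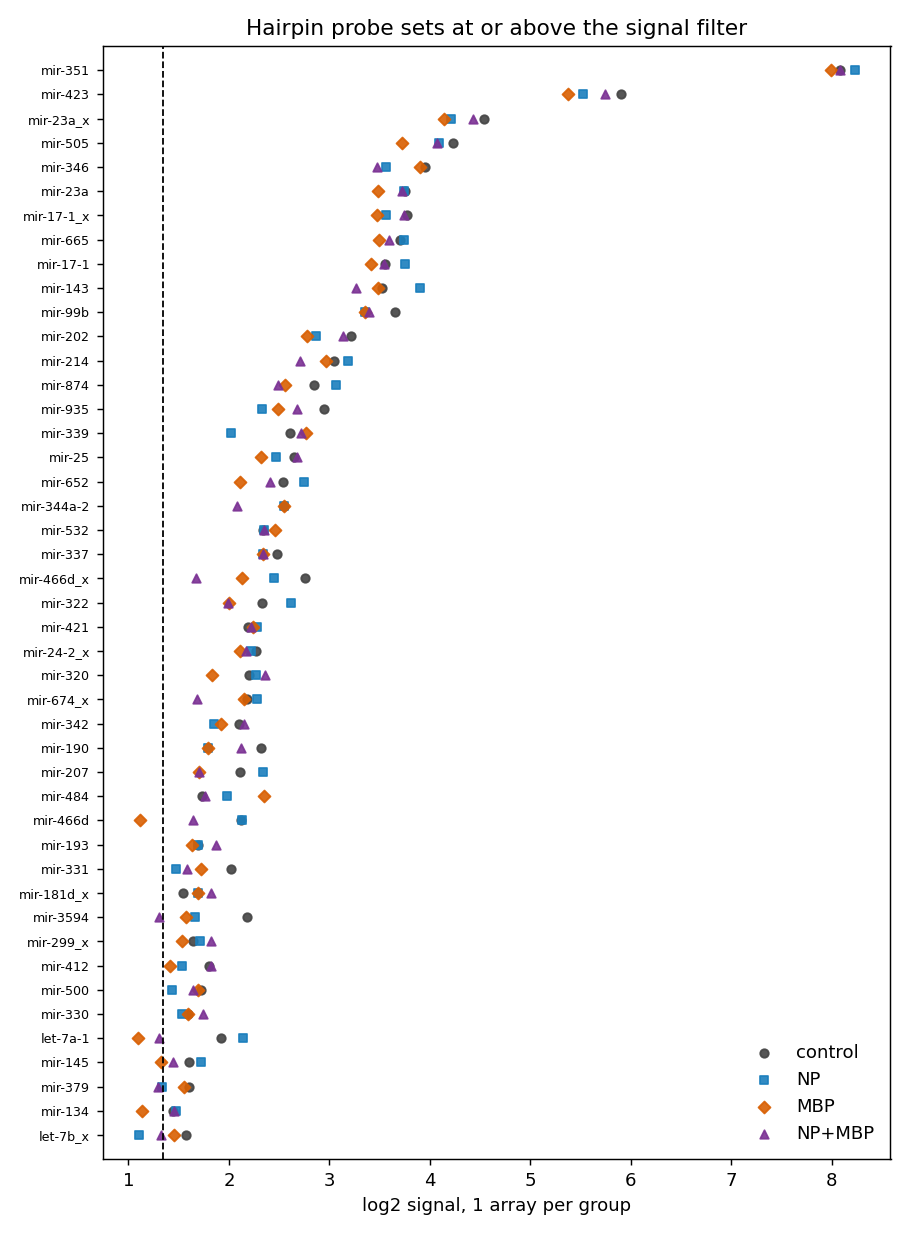
Log2 signal of the 45 hairpin probe sets above the filter, ordered by their mean, with 1 point per array and group. The dashed line is the filter at 1.35; mir-351 near 8 stands apart, and the 4 arrays of most sets lie close together.

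Of all 486 hairpin sets 9.26% were above the filter, so a small list with 0 members above does not stand apart. Hairpins were also listed by the cell type or tissue linked to their microRNAs. None of the 12 sets of the mir-290 to mir-295 cluster (pluripotent cells) or the 17 of the X-linked testis cluster was above the filter. Nor was any of the 5 sets of the mir-34 and mir-449 family (meiotic and ciliated cells). Neither was any of the 6 of the muscle group or the 18 of mir-9, mir-124 and mir-128 (neurons). The same held for all 5 blood cell sets, for mir-126 of endothelium at -0.27 and for mir-122 of liver at 0.03. Of the 4 smooth muscle and stromal hairpins 3 were above, namely mir-143 at 3.54, mir-214 at 2.98 and mir-145 at 1.52. These lists were compiled with earlier results of these data known, and the hairpin levels do not measure their mature products: the mature rows of the X-linked testis cluster had a median of 4.14 and miR-126 read 7.92.

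The gene-level arrays of the same groups were used to check the cell label. Of 11 measured Sertoli cell markers, 10 lay above the median of all gene-level probe sets (7.56), among them Fshr at 11.59, Gata4 at 11.03 and Sox9 at 10.62, while Amh lay at 7.37. All 4 measured markers of peritubular myoid cells, the contractile cells around the tubule, were also high, from 12.04 for Myh11 to 13.03 for Tagln. Of the Leydig cell, macrophage and endothelial markers, 1 of 5, 0 of 4 and 1 of 3 were above the median, and of the premeiotic and the later germ cell markers 2 of 7 each. The 4 myoid markers summed to 50.1 in every group. Their part in the mir-143, mir-145 and mir-214 hairpin signal was not tested.

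Hairpins were then set against the mature rows of the same name, and every one of the 486 sets had at least 1. Where a hairpin had several mature rows, which was so for 381 sets, the brightest was used. Different probe sets respond differently to their targets, so a gap in signal is not a gap in abundance. The hairpin set lay below its mature row by a median of -3.05 (hairpin minus mature), and the median gap was -2.95, -3.06, -3.18 and -3.10 on the control, NP, MBP and NP+MBP arrays, which is -3.07 ± 0.09 (SD, n = 4 arrays). The 4 arrays are 4 different groups, so this SD is not a spread of replicates. Where a hairpin set lay within the range of the recurring low values, its gap to the mature row is only a bound. With 413 of the 486 sets (85.0%) below 1, many gaps are such bounds, and the median gap rests largely on dim sets. Examples are the let-7c-2 x set at -0.42 and the mir-24-1 plain set at -0.38, whose mature rows let-7c and miR-24 read 13.90 and 13.47.

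Hairpin sets above the filter were more frequent where the mature row was bright, although most sets of bright microRNAs were below it. Of the 83 sets whose mature row reached 10, 13 (15.7%) were above the filter, against 9.26% of all sets, and the median hairpin of the 83 lay at 0.48. Of the 178 sets whose mature row was below the filter, 4 (2.25%) were above it. Across the 486 sets the levels had a Pearson r of 0.34 and a Spearman rho of 0.35, as a description over sets that share 4 arrays and in part the same mature rows. Only 79 sets exceeded their mature row, and 5 did so by at least 1 log2 unit.

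**Figure D3:**
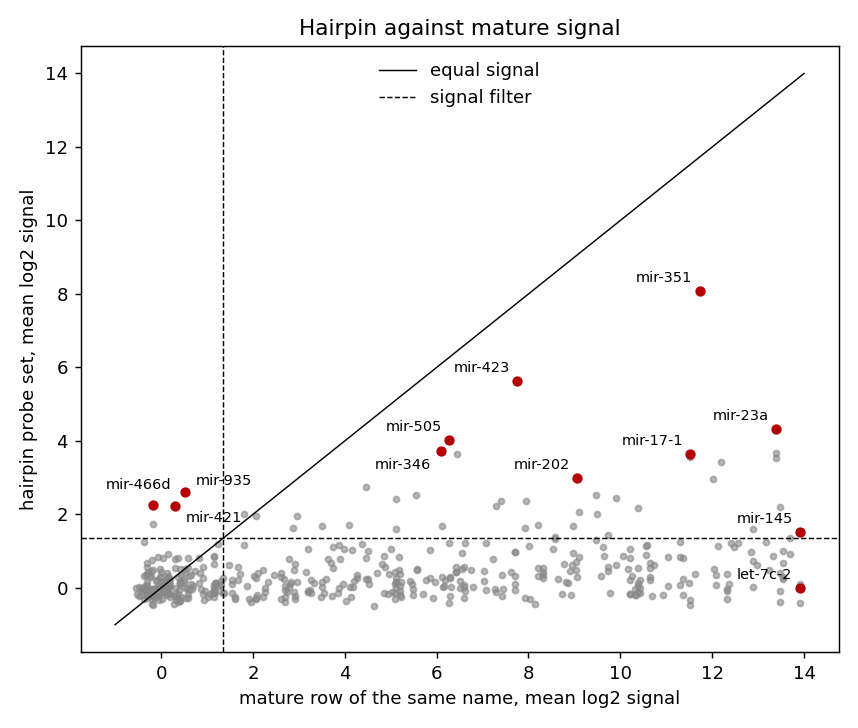
Mean log2 signal of each hairpin probe set against the brightest mature row of the same name (n = 486), with selected hairpins in red. The solid line is equal signal and the dashed lines are the filter at 1.35; mir-935, mir-421 and mir-466d lie above equal signal with mature rows below the filter.

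The 5 hairpins brighter than their mature row by that margin were both mir-466d sets, mir-935, mir-421 and mir-3575. The mir-935 hairpin read 2.94, 2.33, 2.48 and 2.67 on the control, NP, MBP and NP+MBP arrays, against a mature mean of 0.52. Its printed stem-loop has the highest GC content of all sequences matched, 79.1%. The mir-421 hairpin read 2.19, 2.27, 2.24 and 2.22, against 0.31 for its brighter mature row. Those 4 values span less than 0.1, and its GC content is 39.2%. The mir-466d x set averaged 2.25 and the plain set 1.75, against -0.17 for mature miR-466d, with a GC content of 31.2%.

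Base composition and predicted folding were compared with signal over the 428 sets with a sequence. The median GC content was 52.0% for the 40 sets above the filter and 48.0% for the 388 below it, and GC content and level had a Spearman rho of 0.32. The predicted folding energy per base had medians of -0.47 and -0.42 kcal/mol in the same order, with a rho of -0.27 against the level. Hairpins above the filter had a median length of 84 bases and those below it 87. These are descriptions over sets that share arrays and overlapping sequences.

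Neighbouring hairpins, which are often cut from 1 shared primary transcript, had unequal signal. On chromosome X, 5 hairpins lie within 5.31 kb. There mir-351 read 8.09, mir-322 2.23, mir-542 1.21, mir-503 0.46 and mir-450a -0.29. The mature rows of mir-322, mir-503 and mir-542 read 7.29, 9.74 and 7.07, so the dim hairpins had bright mature rows. In the mir-17 to mir-92a-1 cluster on chromosome 15, both mir-17-1 sets were above the filter and the other 7 sets were at 0.83 or lower. In the mir-23a cluster on chromosome 19 both mir-23a sets and the mir-24-2 x set, at 2.19, were above, while the mir-27a sets read 0.85 and 0.09. The imprinted Dlk1-Dio3 region, a large microRNA cluster expressed from the maternal chromosome, had 6 of 63 sets above the filter in its 2 clusters on chromosome 6, led by mir-665. That is 9.52%, near the 9.26% of all sets.

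Hairpins that share a mature seed also differed. In the arm annotation used, the seed CCCUGAG was found in mir-351, mir-125a and mir-125b-2, whose brightest sets read 8.09, 1.23 and 0.99. The mir-125b-1 hairpin, matched by name to the same mature row as mir-125b-2, was not in that group and read 0.67 in its brighter set. The let-7 seed GAGGUAG was shared by 11 hairpins with levels from 0.01 to 1.62, of which let-7a-1 and let-7b were above the filter. The seed AGCAGCA of the miR-16 family was shared by 5 hairpins, and mir-322 alone among them was above.

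Probe sets of different design for 1 hairpin showed how far a level depends on the design, which is not the spread of repeat measurements. For the 66 hairpins with exactly 2 sets, the median gap between levels was 0.34. It reached 2.26 for mir-24-2, whose x set read 2.19 and whose plain set read -0.07. For the 6 hairpins with 3 or more sets, the highest and lowest set differed by 0.58 to 2.44. Of the 66 pairs, 3 had both sets above the filter and 9 had 1 above and 1 below. For those 9 a level or a difference rests on 1 of the designs.

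The treatments gave small differences in the hairpins. Without replicates, a difference of at least 1 log2 unit (2-fold) was taken as the size to count. Of the 45 hairpin sets above the filter, 0 were 2-fold higher and 0 were 2-fold lower in NP minus control, against 1.04% and 2.6% of all 385 rows above the filter. In MBP minus control the hairpin counts were again 0 and 0, against 5.45% and 1.82%. The mir-466d plain set just missed the limit there, at -0.998. In NP+MBP minus control 0 were higher and 1, the mir-466d x set, was lower, against 2.34% and 3.64%. Of the comparisons between treated arrays, NP+MBP minus MBP gave 0 and 0 hairpins against 0.519% and 5.19%, and NP+MBP minus NP gave 0 and 0 against 5.45% and 4.94%. At a 1.5-fold limit there were 0 higher and 2 lower for NP (background 6.23% and 7.53%), 1 higher and 4 lower for MBP (15.1% and 6.49%), and 0 higher and 3 lower for NP+MBP (8.83% and 7.53%). The 3 treatments share the control array.

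With no filter, 2 of the 486 sets were 2-fold higher and 4 lower in NP minus control, against 0.772% and 2.06% of all 1166 rows. The counts were 2 and 4 in MBP minus control, against 2.49% and 1.29%, and 2 and 6 in NP+MBP minus control, against 1.54% and 2.23%. Apart from the mir-466d x set, the sets that passed 2-fold in any of the 5 comparisons had levels from -0.19 to 1.21. The mir-21 set, for example, read 0.68, 0.35, 1.04 and 0.02 on the control, NP, MBP and NP+MBP arrays. All 4 values are below the filter, while its mature row stood at 10.16.

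The limma fit used an additive model with 1 term for NP and 1 for MBP over the 4 arrays and left 1 residual degree of freedom. Among the 45 hairpins it called 0 for MBP and 0 for NP at an adjusted p of 0.05, with smallest adjusted p-values of 0.325 and 0.512. The background at that limit was 0% of 385 rows for both terms. An unadjusted p under 0.05 in this fit was reached by 4 of the 45 hairpins for MBP and 1 for NP. Of the 340 mature rows fitted, 49 reached it for MBP and 34 for NP. A count of 0 with 1 residual degree of freedom does not show that the hairpins were unaffected.

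The signs of the differences were then counted. In MBP minus control 38 of the 45 hairpin sets were lower, 5 higher and 2 equal, with a median of -0.27, against 49.4% of all 385 rows lower. Mature rows in the same signal range, from 1.35 to 5, were lower in 51 of 154 cases (33.1%) with a median of 0.28, and the hairpins in that range in 36 of 43 (83.7%). The second MBP pair was closer to even. In NP+MBP minus NP 25 of the 45 were lower, with a median of -0.02, against 40% of all rows. In NP minus control 23 of 45 were lower, with a median of -0.01, against 47.5%, and in NP+MBP minus control 32 were lower and 13 higher, with a median of -0.12, against 37.7%. Between 1.35 and 5, 69.8% of hairpins and 44.2% of mature rows were lower in NP+MBP minus control. In NP+MBP minus MBP 18 were lower, with a median of 0.10, against 46.8%. MBP minus control and NP+MBP minus control had the highest counts of lower hairpins. Both use the control array, as does NP minus control, where 23 of 45 were lower. An effect of MBP and a property of 1 array, control or MBP, cannot be told apart.

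**Figure D4:**
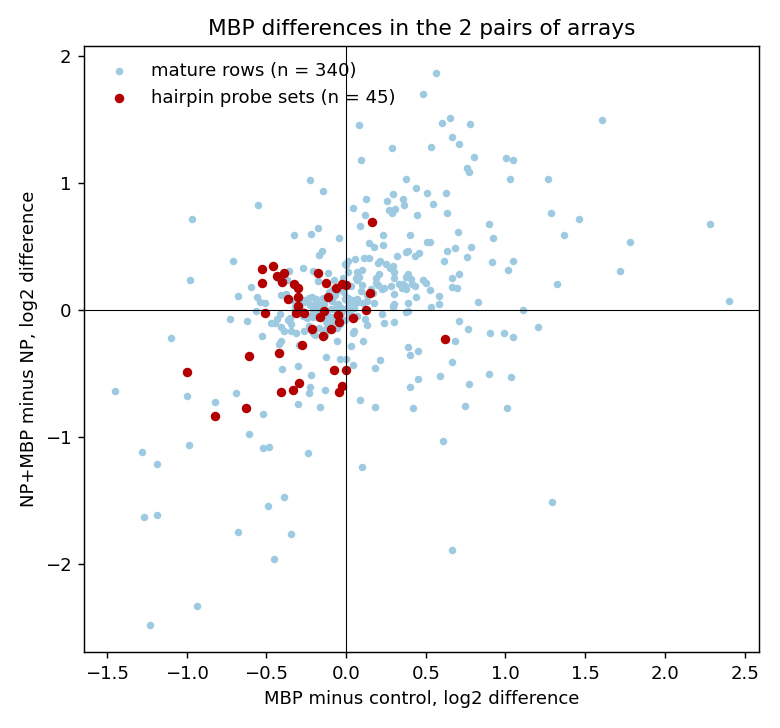
Log2 difference of MBP minus control (horizontal) against NP+MBP minus NP (vertical) for the 45 hairpin sets (red) and 340 mature rows (blue) above the filter. Most hairpin points lie left of 0 on the horizontal axis, with 38 of 45 below 0, and on both sides of 0 on the vertical axis, with 25 of 45 below 0.

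Both MBP pairs use separate arrays, and across the 45 hairpins their differences had a Pearson r of 0.22. The NP pairs had an r of -0.05. Over all 486 sets the values were 0.08 and -0.06. These are descriptions over sets measured on the same 4 arrays.

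Hairpin differences spread less than those of mature rows of like signal. Between 1.35 and 5 the SD of the NP minus control difference was 0.27 over 43 hairpin sets and 0.59 over 154 mature rows. For MBP minus control it was 0.28 and 0.67, and for NP+MBP minus control 0.28 and 0.65. In that range 0 hairpins and 25 mature rows (16.2%) passed 2-fold in MBP minus control. Differences of hairpin and mature row were only loosely related: the r over the 45 hairpins and their mature rows was 0.30 for NP minus control and 0.16 for MBP minus control, and the signs were the same for 20 and 28 of the 45.

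Among the 45 sets above the filter, both mir-466d sets and let-7a-1 had the 3 lowest MBP minus control differences. In rodents the mir-466 microRNAs are a repeat-rich family encoded in the Sfmbt2 gene. The x set read 2.75 on the control, 2.45 on the NP, 2.13 on the MBP and 1.68 on the NP+MBP array. Both arrays with MBP were thus below both arrays without it, and its 2 MBP differences (against control, and NP+MBP against NP) averaged -0.70 ± 0.10 (SD, n = 2 pairs). The 2 pairs of a compound differ in the other compound, so such an SD, here and below, is not a spread of replicates. The plain set read 2.12, 2.13, 1.12 and 1.64, again with both MBP arrays lowest, and its pairs averaged -0.74 ± 0.36 (SD, n = 2 pairs). Its MBP array value of 1.12 lies below the filter of 1.35, which the set passed on its mean. Neither mir-466d set passed in the limma fit, with adjusted p-values of 0.329 for the x set and 0.349 for the plain set.

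The 4 mature rows of the mir-466 family above the filter were also lower in MBP than in control. Of all 340 mature rows above the filter, 152 were lower in that comparison. Mature miR-466d itself was at the low end, at -0.25 in control, 0.22 in NP, -0.37 in MBP and -0.25 in NP+MBP. The miR-466b-1-star row read 8.06, 8.25, 6.80 and 6.63, and the miR-466c-star row read 6.97, 7.35, 5.78 and 6.14. For both star rows the arrays with MBP lay below the arrays without it. The miR-466b-2-star row read 5.76, 5.34, 4.58 and 3.73, again with both arrays with MBP lowest. The miR-466b row read 4.70, 5.35, 3.61 and 5.13, so that its NP+MBP array was above control. The miR-466c row, below the filter at 1.04, did not have the arrays with MBP lowest, with 0.77, 0.48, 0.95 and 1.96. The other hairpins of the family, mir-466b-1, mir-466b-2 and mir-466c, were at 0.95 or lower.

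The RefSeq arms of the family show how much of each lies within the mir-466d hairpin printed above. Here capitals mark the longest run that is identical to a stretch of that hairpin.
miR-466b-3p: auACAUACACACACAcauacac
miR-466b-2-3p: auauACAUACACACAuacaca
miR-466b-5p: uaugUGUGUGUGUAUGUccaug
miR-466c-3p: uauacaugcACACAUACACAC
miR-466c-5p: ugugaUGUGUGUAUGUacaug
The shared runs were 13, 11, 13, 12 and 11 bases long. None of the 687 mature arms of other rat microRNAs in RefSeq shared a run of more than 8 bases with the hairpin, and their median was 5. All 3 other family members lie on chromosome 17 on the minus strand, as mir-466d does, with miR-466c-5p ending at 72927669 and miR-466b-3p at 72945533. Whether RNA of another family member contributes to the mir-466d probe sets was not tested.

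The let-7a-1 plain set had the lowest unadjusted p for MBP. It read 1.92 on the control, 2.14 on the NP, 1.10 on the MBP and 1.31 on the NP+MBP array, so both MBP arrays were lower, by -0.83 ± 0.01 (SD, n = 2 pairs), with an adjusted p of 0.325 in the limma fit. Both MBP values lie below the filter of 1.35, and of the 45 sets let-7a-1 was the 1 that passed the filter through the arrays without MBP alone, so its MBP difference is a description of a set chosen from that side. Its x set had a mean of 0.74, below the filter, and MBP pairs of -0.23 on average, so the repeat design gave a smaller difference. Mature let-7a, a microRNA that restrains proliferation, stood at 12.89.

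The mir-207 and mir-322 hairpins also had both MBP arrays lowest. This order was not particular to them, to mir-466d or to let-7a-1. The mir-351, mir-505, mir-652, mir-874, mir-145 and mir-665 sets, among others above the filter, had it too. The share of all rows with this order was not counted. The mir-207 set read 2.11 on the control, 2.34 on the NP, 1.70 on the MBP and 1.70 on the NP+MBP array, with an adjusted p of 0.349 for MBP in the limma fit. Mature miR-207 read 2.86, 2.82, 2.97 and 3.23, with the MBP arrays highest. The mir-322 set read 2.33, 2.62, 2.0 and 1.99, with an adjusted p of 0.366 in the same fit. The mir-3594 set read 2.18 on the control, 1.66 on the NP, 1.57 on the MBP and 1.30 on the NP+MBP array. Its NP+MBP value lies below the filter of 1.35. All 3 treated arrays were below control, by -0.88 for NP+MBP, and the limma fit gave adjusted p-values of 0.349 for MBP and 0.531 for NP. Its brighter mature row, miR-3594-3p, read 3.89, 3.0, 3.34 and 3.83. In the other direction the mir-484 hairpin read 1.73, 1.98, 2.35 and 1.76, so the MBP array was 0.62 above control while NP+MBP lay below NP.

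The mir-346 hairpin had the lowest unadjusted p for NP. It read 3.95 on the control, 3.56 on the NP, 3.90 on the MBP and 3.47 on the NP+MBP array. Both NP arrays were below both arrays without NP, and the 2 NP pairs averaged -0.41 ± 0.04 (SD, n = 2 pairs), with an adjusted p of 0.512 in the limma fit. Mature miR-346 read 6.49, 6.49, 6.01 and 5.42, so its NP array equalled the control and its NP+MBP array was lowest. The Mir346 stem-loop set on the gene-level array, a separate measurement normalized on its own, read 9.28, 8.95, 9.01 and 8.84 in the same order. The NP+MBP array was the lowest of the 4 in all 3 readouts, by -0.48 for the hairpin, -1.07 for the mature strand and -0.44 for the gene-level set against control.

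**Figure D5:**
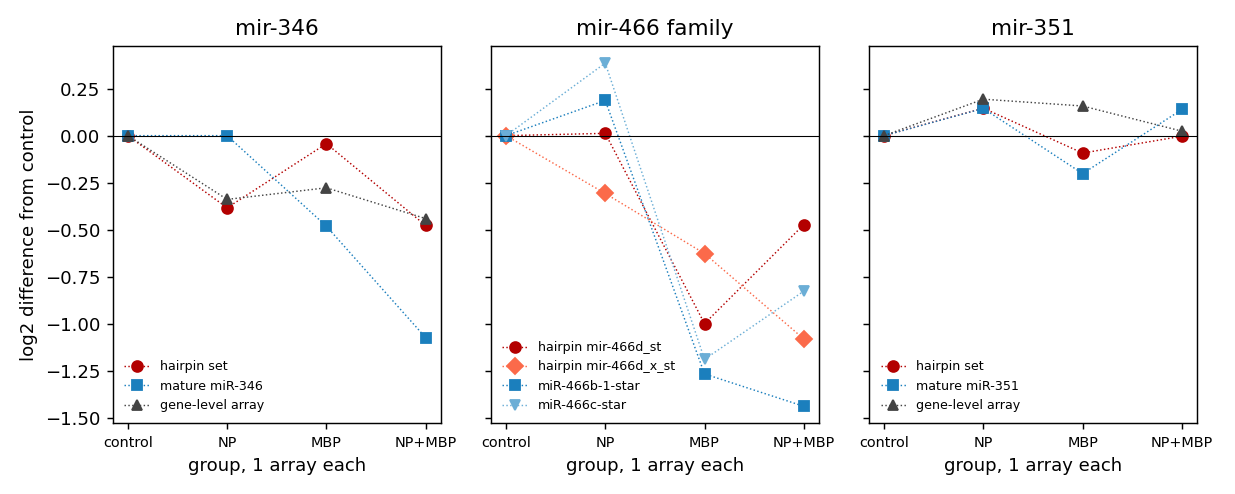
Log2 difference from the control array for mir-346, the mir-466 family and mir-351 on the NP, MBP and NP+MBP arrays, with each readout against its own control. For mir-346 all 3 readouts are lowest in NP+MBP, for the 4 plotted mir-466 readouts (both mir-466d hairpin sets, miR-466b-1-star and miR-466c-star) both MBP arrays lie below control, and for mir-351 no readout departs from control by more than 0.25.

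The gene-level array held 226 probe sets that covered 1 stem-loop of at most 200 bp and no other gene symbol. Of these 47 were above the median of the gene-level table, 7.56. The hairpins above the filter on the microRNA array had a gene-level median of 7.14 (n = 30) and the others 5.98 (n = 196), and 12 of the 30 were above 7.56. Across the 226 the 2 arrays' levels had a Spearman rho of 0.46 and a Pearson r of 0.38, as a description over different probe designs. The highest gene-level sets were Mir207 at 11.07, Mir143 at 10.41 and Mir145 at 10.20, whose hairpin sets read 1.96, 3.54 and 1.52. Mir21 read 9.77 there, although its hairpin set was at 0.52. A gene-level set can also detect host transcript, and its part was not tested.

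None of the 226 gene-level sets differed by 2-fold in any of the 5 comparisons. Of the 26332 main gene-level probe sets, 0.0722% did so in NP minus control, 0.0038% in MBP minus control and 0.103% in NP+MBP minus control. The shares were 0.0684% in NP+MBP minus MBP and 0% in NP+MBP minus NP, so 0 of 226 is near the background. In the 226 sets, the SD of the differences ran from 0.12 to 0.19. In the mir-351 cluster, Mir351 and Mir322 differed little between groups there, while the mir-322 hairpin set of the microRNA array had both MBP arrays lowest. Mir351 read 7.98 on the control, 8.17 on the NP, 8.14 on the MBP and 8.0 on the NP+MBP array, and Mir322 7.0, 7.01, 6.97 and 6.99. Mir503 read 8.08, 7.88, 7.96 and 7.79, so the dim mir-503 hairpin of the microRNA array had a bright gene-level set.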

How the data were processed

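RNA of 4 groups was measured on 4 microRNA arrays and 4 gene-level arrays, and groups were taken from the sample titles. The deposited microRNA values are on a log scale whose base, log2, was inferred from their range (-0.94 to 13.94). Their upper quartiles were alike, and they were taken as normalized by the authors. The submitters' processing notes name MAS5, without saying for which table. The column headers of the authors' gene-level workbook name RMA, which disagrees with MAS5 for that array. The gene-level log2 values used here have column headers that name no method. Which method made the microRNA values is not settled. The 2 tables were normalized separately, and 4 signal columns of the authors' workbook that match no sample label were not used.

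No normalization was added. Rows with a mean of at least 1.35, the median of the mature rows, were tested. Differences between arrays have no test. An additive model was fitted with limma 3.58.1 in R 4.3.3, with Benjamini-Hochberg adjustment over 385 rows, after a test on simulated data. It assumes that NP and MBP add, and interaction and array noise cannot be told apart. Whether the arrays' RNA came from separate cultures is not given in the sources used here. Folding energies came from RNAfold 2.7.2, and sequences and gene spans from RefSeq (GRCr8). The members and lists were chosen with earlier results of these data known. Described hairpins were drawn from the brightest, those with extreme differences, gaps or p-values, and list members, and not every one is printed. The mir-466 arm and seed comparisons were added after values were seen. Alternatives were 3 normalizations, 2 filters, a 1.5-fold limit and probe set suffixes.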

Additional observations from a re-analysis of the deposited data

How the results depend on the processing

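No paired analysis was possible because each group had 1 microRNA array and the labels give no replicate number, and leaving out an array would leave no residual degree of freedom. Without the filter, 2 hairpins were at least 2-fold higher and 4 lower for NP, 2 and 4 for MBP, and 2 and 6 for NP+MBP. At 1.5-fold, 2 were lower for NP, 1 higher and 4 lower for MBP, and 3 lower for NP+MBP. Under median centring, quantile normalization and cyclic loess, 1 hairpin was 2-fold lower for MBP. With the 75th percentile filter 2 hairpins remained and 0 were 2-fold lower for NP+MBP. The hairpin minus mature median was -1.81 against the mean of all mature rows and -6.05 over sets whose mature row passed the filter. The limma fit called 0 hairpins for MBP and for NP under every alternative run, with a smallest adjusted p of 0.0915 for MBP under cyclic loess. Chosen after seeing the data, the median MBP minus control difference of the 45 hairpins was recomputed: it was -0.31 under median centring, -0.37 under quantile normalization, -0.30 under cyclic loess, -0.19 over the 38 sets above on every array and -0.28 over plain sets, with 41, 42 and 41 of 45 below 0 under the 3 normalizations. For NP+MBP minus NP the median was -0.01, 0 and -0.08 under these 3 normalizations. There 24, 22 and 27 of the 45 were below 0, and in NP+MBP minus MBP 12, 9 and 12 were. The causes were not tested. Signal near the recurring low values limits what the dim hairpins can show.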
